A study of Homo sapiens with 20 samples.

Results

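Apolipoprotein L (APOL) and Schlafen (SLFN) genes form clusters of related genes on chromosomes 22 and 17, and 9 of them, APOL1, APOL2, APOL3, APOL4, APOL6, SLFN5, SLFN11, SLFN12 and SLFN13, were followed here through 20 RNA libraries of 36346 gene names. The 9 genes were chosen on their difference between POLR1D-silenced and control libraries of these same data, with APOL6 and SLFN5 leading, so that their silencing values are given as a description with no test. The cells, of the established colorectal cancer lines HT29 and SW480, carry extra copies of the chromosome segment with POLR1D, a subunit shared by RNA polymerases I and III. Cells received either of 2 siRNAs to POLR1D (siPOLR1D2, siPOLR1D3) or, as the control, a scrambled siRNA (SCR), and were harvested after 72 h. HT29 had 4 SCR, 2 siPOLR1D2 and 2 siPOLR1D3 libraries, and SW480 had 6, 3 and 3. Transfection was transient, every library carried an siRNA, and the labels number the replicates without saying whether they were separate cultures, so that the p values below measure only the spread between these libraries.

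The APOL proteins resemble channel-forming and lipid-binding proteins. APOL1 is secreted on HDL particles and kills trypanosomes, whereas the other members stay inside the cell. The Schlafen proteins are interferon-inducible regulators of RNA and growth, several of which cleave transfer RNA or block translation. Both families are known as targets of interferon signalling, in which receptors pass the signal through JAK kinases and STAT proteins to promoters with the ISRE or GAS sequence.

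In the GENCODE release 29 annotation of GRCh38, APOL6 lay at chr22:35648395-35668409 on the plus strand. APOL3, APOL4, APOL2 and APOL1 followed in that order in a cluster of 127 kb at chr22:36140330-36267530. SLFN5, SLFN11, SLFN12 and SLFN13 lay in a cluster of 206 kb at chr17:35243036-35448837. No member overlapped another annotated gene, but members share sequence. Of the 31-base words in the SLFN11 transcripts, 14.0% also occurred in SLFN13. In the same way 3.98% of SLFN12 words occurred in SLFN12L and 3.45% of APOL1 words in APOL2. Of SLFN5 and APOL6 words, 0.28% and 0.18% occurred in any other gene of the families examined. Words found in any other gene at all made up 14.3% for APOL1, 4.72% for APOL6 and 1.69% for SLFN5. Reads from SLFN11 and SLFN13, from SLFN12 and SLFN12L, and from APOL1 and APOL2 may therefore have been divided between the genes of each pair.

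Promoter sequences from RefSeq (GRCh38.p14, 250 bases before to 50 after the start) were matched for SLFN11 and SLFN12. They are shown as the members matched, and both genes were near 0 in HT29 and higher in SW480. SLFN11 is from chr17:35373572-35373871 and SLFN12 from chr17:35433125-35433424, both on the minus strand, written 5′ to 3′, with capitals marking a match to the GAS pattern.
SLFN11: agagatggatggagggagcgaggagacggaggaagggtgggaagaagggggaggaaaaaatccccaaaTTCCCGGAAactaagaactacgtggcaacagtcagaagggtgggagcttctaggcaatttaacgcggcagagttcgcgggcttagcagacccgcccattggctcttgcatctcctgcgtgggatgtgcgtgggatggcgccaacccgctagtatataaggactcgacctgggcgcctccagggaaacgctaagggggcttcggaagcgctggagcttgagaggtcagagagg
SLFN12: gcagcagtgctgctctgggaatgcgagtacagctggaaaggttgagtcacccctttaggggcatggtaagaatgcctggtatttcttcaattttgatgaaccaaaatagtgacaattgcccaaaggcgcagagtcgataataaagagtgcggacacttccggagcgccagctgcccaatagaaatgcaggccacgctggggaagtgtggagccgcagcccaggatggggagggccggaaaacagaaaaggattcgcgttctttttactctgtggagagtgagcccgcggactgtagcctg
The patterns searched on both strands were GAAANNGAAA (the core of the ISRE), TTCNNNGAA (GAS) and TGATGCAA (the core of the amino acid response element). SLFN11 held 1 match, TTCCCGGAA, 182 bases before the start, which reads as a match on either strand, and SLFN12 held none of the patterns. Among 35116 promoters of the same length, 3.57% held the ISRE core, 7.66% the GAS pattern and 0.866% the amino acid response element core. A match describes letters and not a site in use.

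The values are read counts that the authors estimated with kallisto and normalized with DESeq2, within each cell line, so that levels are set side by side between the lines and not tested. The values of a library summed to between 17619829.5 and 22958216. POLR1D itself ran from 4433 to 6036 in the SCR libraries of HT29 and from 2549.6 to 3492 in the silenced ones, a log2 difference of -0.72 (SE 0.14). In SW480 it ran from 1829 to 2599 in SCR and from 843 to 1336 in the silenced libraries, a difference of -1.04 (SE 0.13), and silenced and SCR libraries did not overlap in either line. Of 10 colorectal epithelium markers, 9 had a median of at least 10 in each line (CDX2 was lower in HT29 and LGALS4 in SW480). The medians of PTPRC and CD3E, which define leukocytes, stayed under 10 in both lines, and the sum of 6 leukocyte markers in HT29 (22293 to 32509 in SCR, 24566 to 32320 in silenced libraries) was nearly all LYZ. In SW480 that sum ran from 121 to 257 in SCR and from 161 to 852 in the silenced libraries, and the part of such cells in the results was not tested. Libraries stood apart within each line. In HT29 the first principal component (43.3% of variance) separated SCR replicate 1 from the rest, and in SW480 (42.0%) it put SCR replicates 1 to 3 and siPOLR1D2 replicates 1 and 2 on one side and the remaining 7 libraries on the other. The differences of the members are given with and without HT29 SCR replicate 1 and SW480 SCR replicates 1 and 3 where these moved them. Those SW480 libraries were the lowest and the highest SCR libraries of that line for SLFN5 and APOL6.

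To compare genes, the SCR values were divided by the mean length of each gene's coding transcripts. SLFN5 had the highest mean level per kb in both lines, 286 ± 212 (SD, n = 4) in HT29 and 313 ± 228 (SD, n = 6) in SW480. These means leaned on single libraries, since they became 182 ± 41.6 (n = 3) without HT29 SCR replicate 1 and 226 ± 87.3 (n = 5) without SW480 SCR replicate 3, in both cases still above APOL2 without the same library (129 and 105). APOL2 followed in HT29 at 152 ± 58.9 per kb, then APOL1 at 115 ± 39.1 and APOL6 at 49.9 ± 12.8. The ranges of SLFN5, APOL2 and APOL1 overlapped, and the lowest APOL1 library (59.1 per kb) lay within the range of APOL6 (36.7 to 64.8 per kb). APOL4 (7.88 ± 2.23 per kb) and APOL3 (6.32 ± 3.74) were lower and did not differ beyond their spread, and SLFN13 and SLFN11 had means of 0.43 and 0.24 per kb. SLFN12 was at 0 in all 4 SCR libraries of HT29. In SW480, APOL2 again came second at 129 ± 59.7 per kb, followed by SLFN11 at 34.0 ± 19.5 and APOL6 at 17.8 ± 13.0, whose ranges overlapped. SLFN12 (12.3 ± 9.40), APOL4 (9.59 ± 4.32), APOL1 (9.45 ± 4.92) and APOL3 (8.08 ± 4.17) overlapped one another and APOL6, which was at 12.7 ± 4.05 per kb without SCR replicate 3, and SLFN13 was the lowest at 2.51 ± 1.15 per kb, with a range that reached theirs. Both lines thus held SLFN5 and APOL2 as the upper members, whereas APOL1 stood far higher in HT29 and the other Schlafen genes were found in SW480.

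SLFN5, a nuclear Schlafen protein known to repress transcription, had the largest silencing difference of the 9 genes in both lines. In HT29 its values in SCR replicates 1 to 4 were 2869.9, 827, 697 and 1088, against 274 and 473 with siPOLR1D2 and 450.3 and 411 with siPOLR1D3. All 4 silenced libraries lay below all 4 SCR libraries, and SCR replicate 1, the library that stood apart, was the highest. The mean was 3.41-fold lower in the silenced libraries (in such bulk RNA, fewer cells with the transcript and less transcript per cell cannot be told apart), and the log2 difference (of the value plus 1, as for every difference below) was -1.56 (SE 0.40), or -1.12 (SE 0.21) without SCR replicate 1. In SW480 the values in SCR replicates 1 to 6 were 476, 837, 3591, 1500.0, 1248 and 1345, against 121, 189.8 and 142 with siPOLR1D2 and 459, 463 and 511 with siPOLR1D3. Of the 6 silenced libraries, 5 lay below every SCR library, and the exception was siPOLR1D3 replicate 3, which exceeded SCR replicate 1. The mean was 4.77-fold lower and the log2 difference -2.21 (SE 0.48), which became -2.49 (SE 0.46) without SCR replicate 1 and -1.91 (SE 0.43) without SCR replicate 3, the highest library. Within the sides of the first component, the SLFN5 difference was -2.89 (SE 0.74) on the first, between 3 SCR and 2 siPOLR1D2 libraries, and -1.94 (SE 0.37) on the second, between 3 SCR and 4 silenced libraries.

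APOL6, an intracellular APOL protein linked to mitochondrial cell death, came next. In HT29 it read 656, 371, 425 and 567 in SCR replicates 1 to 4, against 199 and 247 with siPOLR1D2 and 263 and 238 with siPOLR1D3. Here too the silenced libraries lay below every SCR library. The mean was 2.13-fold lower and the log2 difference -1.06 (SE 0.19), or -0.92 (SE 0.17) without SCR replicate 1. In SW480 it read 60.2, 158, 439, 163, 133 and 127 in SCR replicates 1 to 6, against 76.3, 105 and 42.2 with siPOLR1D2 and 46.7, 38.2 and 60.1 with siPOLR1D3. Of the silenced libraries, 4 lay below every SCR library, and siPOLR1D2 replicates 1 and 2 lay above SCR replicate 1, so that SCR replicate 1 alone made the groups overlap. The mean was 2.93-fold lower and the log2 difference -1.37 (SE 0.39), which became -1.63 (SE 0.35) without SCR replicate 1 and -1.06 (SE 0.32) without SCR replicate 3. The APOL6 difference was -0.84 (SE 0.72) on the first side of the component and -1.58 (SE 0.23) on the second.

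**Figure D1:**
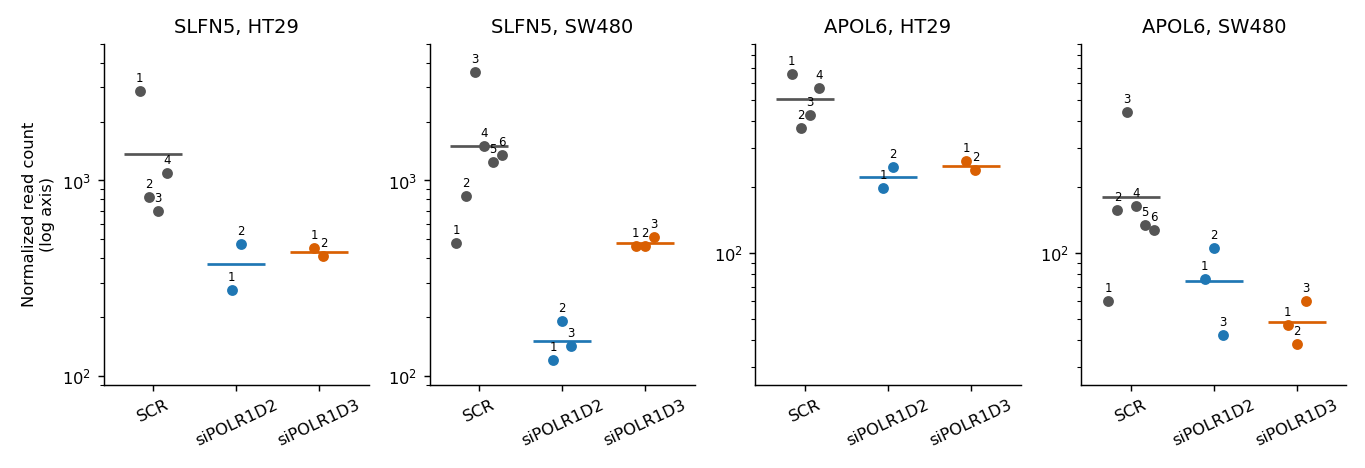
DESeq2-normalized read counts of SLFN5 and APOL6 on a log axis, with 1 point per library numbered by replicate and a line at the mean of each siRNA group in HT29 and in SW480. In HT29 every silenced library lies below every SCR library for both genes, and in SW480 SCR replicate 1 is the only SCR library that reaches the silenced range.

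Over all members, 2 of 9 (SLFN5 and APOL6) had every silenced library below every SCR library in HT29, as did 4.17% of the 13274 genes tested there. None of the 9 did so in SW480, where 2.88% of 15019 genes tested did. By limma with Benjamini-Hochberg adjustment over all tested genes, 4.29% of genes were called lower and 2.44% higher in silenced SW480 cells (644 and 367 genes at adjusted p under 0.05, or 478 and 564 after upper-quartile scaling). In HT29 0.0% of genes were called (1422 had an unadjusted p under 0.05). The members were chosen on this contrast, so their own calls are not given and nothing is read from the counts of those without overlap. A value of at least 10 in enough libraries, the filter for the tests, was met by 5 of the 9 genes in HT29 (APOL1, APOL2, APOL4, APOL6 and SLFN5) and by 8 in SW480 (all but SLFN13).

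For the other APOL genes the SCR and silenced libraries overlapped in both lines. APOL1 read 280.1, 110.2, 236 and 233 in HT29 SCR and between 126 and 165 in the 4 silenced libraries, which lay inside the SCR range, with a log2 difference of -0.47 (SE 0.27), or -0.32 (SE 0.26) without SCR replicate 1. In SW480 it was low, from 5.13 to 31.9 in SCR and from 7.32 to 25.4 in the silenced libraries, with a difference of 0.15 (SE 0.44), which was 0.35 without SCR replicate 1, 0.26 without SCR replicate 3 and -0.14 without SCR replicate 2. APOL2, its neighbour, which stays at membranes inside the cell, read from 120.4 to 346 in HT29 SCR and from 174 to 195 in the silenced libraries, a difference of -0.26 (SE 0.28), or -0.05 (SE 0.24) without SCR replicate 1. The silenced range was narrow and lay within the SCR range, and SCR replicate 1 was again the highest library and SCR replicate 2 the lowest for both genes. In SW480 APOL2 had a median of 172 in SCR (range 142 to 392) and of 184 in the silenced libraries (range 129 to 219), a difference of -0.08 (SE 0.23). The highest SW480 library was SCR replicate 3, as for APOL6 and SLFN5, and without it the APOL2 difference turned to 0.13 (SE 0.16).

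APOL3, known for an interferon-induced, membrane-dissolving action on bacteria inside cells, was near the filter. It read 21.4, 2.25, 16.2 and 15.2 in HT29 SCR against 6.05 to 7.83 in the silenced libraries, so that SCR replicate 2 lay below all the silenced libraries and the other 3 SCR libraries above them. In SW480 it read 9.82 to 31.8 in SCR and 2.99 to 25.1 in the silenced libraries, a difference of -0.61 (SE 0.51), with siPOLR1D2 replicate 3 the lowest. It was -0.48 without SCR replicate 1 and -0.42 without SCR replicate 3. APOL4 read 6.65 to 13.4 in HT29 SCR and 8.65 to 22.9 in the silenced libraries, a difference of 0.37 (SE 0.40), or 0.14 (SE 0.39) without SCR replicate 1. In SW480 it read 6.06 to 21.7 in SCR and 9.17 to 21.3 in the silenced libraries, a difference of -0.08 (SE 0.37), which was -0.27 without SCR replicate 1 and -0.20 without SCR replicate 3, and the groups overlapped throughout.

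SLFN11, which stalls replication in cells with DNA damage, was listed at 0 in 7 of the 8 HT29 libraries and at 1.49 in SCR replicate 1. In SW480 it read 62.7, 47.2, 107, 34.6, 18.4 and 47.6 in SCR, against 44.1, 27.2 and 13.6 with siPOLR1D2 and 13.6, 45.0 and 35.2 with siPOLR1D3, a difference of -0.77 (SE 0.43), or -0.68 without SCR replicate 1 and -0.53 without SCR replicate 3. All 6 silenced libraries lay below the SCR median, and 2 of them below every SCR library. SLFN12, which is activated as an RNase by the phosphodiesterase PDE3A in the presence of certain drugs, was listed at 0 in the HT29 SCR libraries and at no more than 3.32 in the silenced ones. In SW480 it read 12.3, 4.54 and 3.95 in SCR replicates 1 to 3 and 40.9, 31.8 and 35.9 in SCR replicates 4 to 6. The SCR libraries thus fell apart along the sides of the first component. The siPOLR1D2 libraries read 0, 6.59 and 12.1 and the siPOLR1D3 libraries 17.2, 13.0 and 24.4, which gave a difference of -0.81 (SE 0.80) over all libraries, of -0.87 without SCR replicate 1, of -1.15 without SCR replicate 3 and of -1.12 (SE 0.33) for SLFN12 on the second side. SLFN13, a Schlafen RNase of transfer and ribosomal RNA, stayed between 0 and 3.71 in HT29. In SW480 it read 5.62 to 17.4 in SCR and 4.54 to 23.6 in the silenced libraries, below the filter, with a difference of 0.39 (SE 0.42). The share of these values that reflects reads divided with SLFN11 was not tested.

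**Figure D2:**
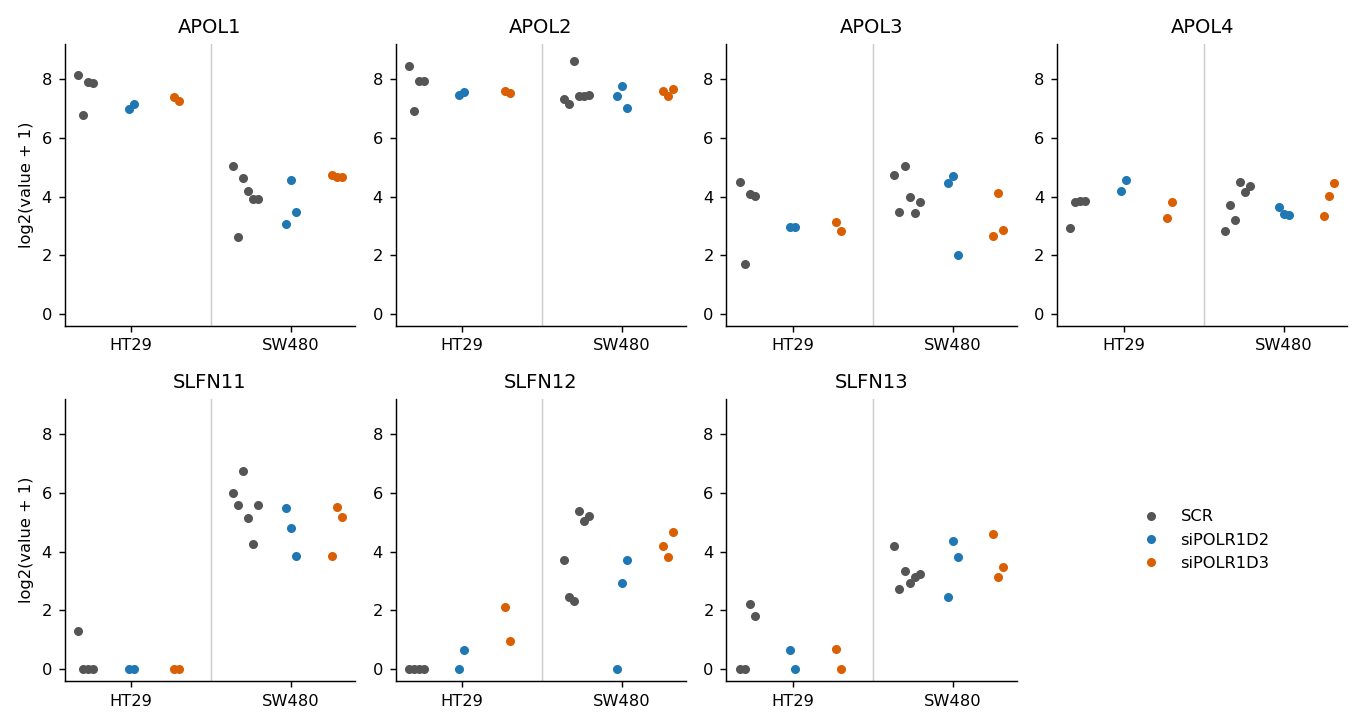
Log2 of the normalized value plus 1 for the other 7 genes, with 1 point per library, in HT29 and SW480 and coloured by siRNA. SLFN11, SLFN12 and SLFN13 lie at or near 0 in HT29 and higher in SW480, and APOL1 lies higher in HT29 than in SW480.

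**Figure D3:**
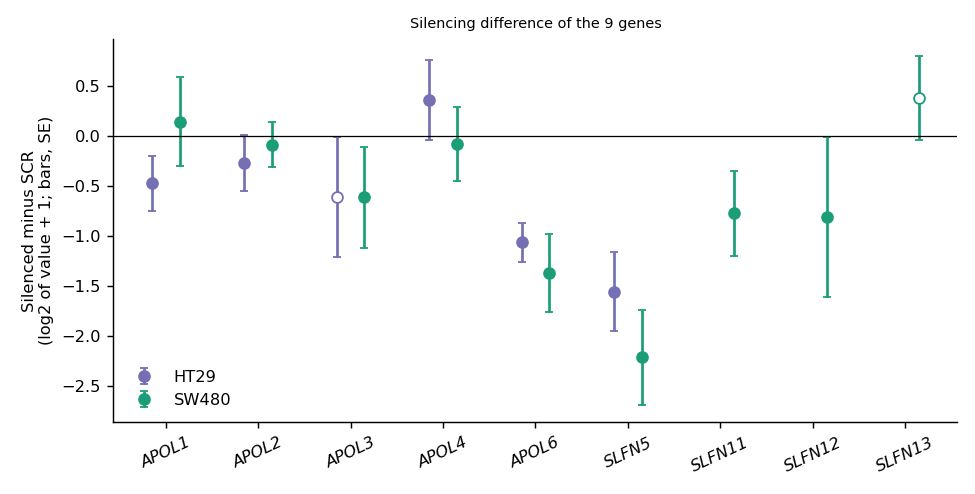
Log2 difference between silenced and SCR libraries for the 9 genes in each line, with bars of 1 standard error, open circles for genes under the filter, and no point where every library was below 10. SLFN5 and APOL6 have the lowest values in both lines, from -2.21 to -1.06.

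The siRNAs were then compared with each other, a contrast that the choice of the genes did not use and in which they could be tested. In SW480 limma called 3.32% of 15019 genes between siPOLR1D3 and siPOLR1D2, and 0 of the 8 tested members. SLFN5 came nearest. Its siPOLR1D2 libraries (121, 142 and 189.8) all lay below its siPOLR1D3 libraries (459, 463 and 511), with a log2 difference of 1.68 (SE 0.52, unadjusted p = 0.0064, limma adjusted p = 0.0883). The siRNA groups also did not overlap for APOL1 and SLFN12, so that 3 of 8 members were separated, beside 34.5% of all tested genes. SLFN12 differed by 2.01 (SE 1.02, limma adjusted p = 0.273) and APOL1 by 1.00 (SE 0.58, limma adjusted p = 0.333), both higher with siPOLR1D3. APOL6 differed by -0.54 (SE 0.55, limma adjusted p = 0.589), the opposite sign, and APOL2, APOL3, APOL4 and SLFN11 by -0.51 to 0.48 with adjusted p of 0.615 or more.

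The call on SLFN5 between the siRNAs turned on single SCR libraries, which enter the fit through the shared estimate of spread. SLFN5 passed in limma at adjusted p = 0.0409 without SCR replicate 1, where 734 of 15247 genes were called. It also passed at limma adjusted p = 0.0265 without SCR replicate 3, where 689 of 15211 genes were called. The difference itself was as before. SLFN5 did not pass when any other library was left out, with limma adjusted p of up to 0.258 without siPOLR1D2 replicate 1. Among the libraries of the second side only, siPOLR1D2 replicate 3 stood alone against the 3 siPOLR1D3 libraries, and SLFN5 differed by 1.74. With 1 siPOLR1D2 library there, only the difference is given. siPOLR1D2 lay mostly on the first side and siPOLR1D3 wholly on the second, so that siRNA and side cannot be told apart in the full comparison. In these SW480 cells POLR1D had a mean of 1073 ± 229 under siPOLR1D2 and of 999 ± 166 under siPOLR1D3 (SD, n = 3 each).

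In HT29 limma called 0.0% of 13274 genes between the siRNAs (207 had an unadjusted p under 0.05) and 0 of the 5 tested members. SLFN5 differed by 0.26 (SE 0.59) and APOL6 by 0.18 (SE 0.29), both within their error, and APOL4 had the farthest value from 0, -0.84 (SE 0.52). The difference of the siRNA contrast between the lines was 1.42 (SE 0.85) for SLFN5, with a limma adjusted p of 0.999. By that test 0.0% of 12724 genes were called (588 had an unadjusted p under 0.05), so a difference between the lines was not shown. Set against the same SCR libraries, SLFN5 in SW480 was at -3.05 (SE 0.49) with siPOLR1D2 and at -1.37 (SE 0.47) with siPOLR1D3. APOL6 had the reverse order, at -1.10 (SE 0.51) with siPOLR1D2 and at -1.64 (SE 0.48) with siPOLR1D3. In HT29 the values were -1.68 (SE 0.55) and -1.43 (SE 0.52) for SLFN5 and -1.15 (SE 0.27) and -0.97 (SE 0.25) for APOL6. The siRNAs share their SCR libraries, and the genes were chosen on this contrast, so that nothing is read from the common sign.

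**Figure D4:**
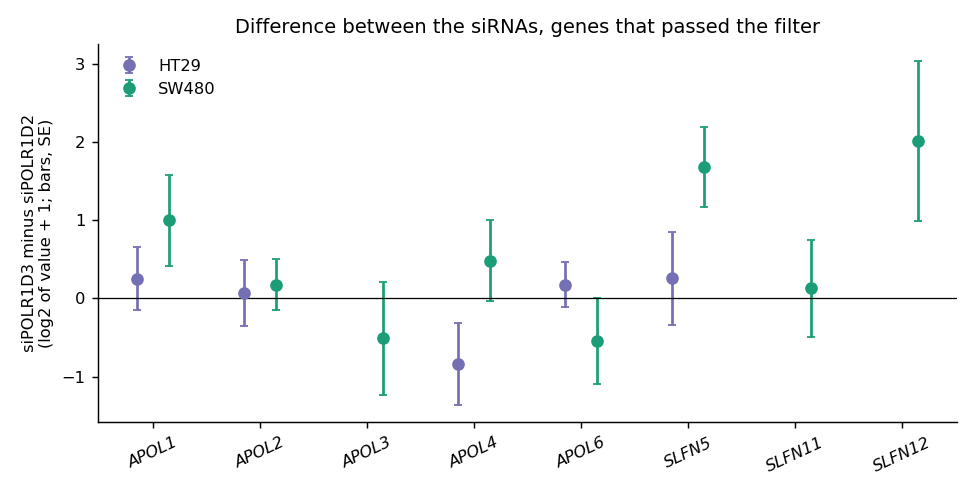
Log2 difference between siPOLR1D3 and siPOLR1D2 libraries with bars of 1 standard error, for the genes that passed the filter in each line. SLFN5 (1.68) and SLFN12 (2.01) in SW480 have the highest values, and no gene passed the adjusted threshold.

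Of the other genes of both families, APOL5 and SLFN14 stayed below 10 in every library. SLFN12L, next to SLFN13, read 27.3 to 65.4 in SW480 SCR and 39.6 to 67.9 in the silenced libraries, with no call (log2 difference 0.18, SE 0.23, limma adjusted p = 0.688). APOLD1, an APOL relative of vascular cells, and SLFNL1 passed the filter in both lines and were not called in either, with limma adjusted p between 0.393 and 0.858.

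Both families being known interferon targets, 71 interferon-stimulated genes, among which no APOL or Schlafen gene was counted, were examined in the same comparison of silenced with SCR libraries. In SW480, 60 were tested, of which 3 fell and 1 rose, beside 4.29% and 2.44% of all genes. The transcription factor IRF1 fell from 769.9 ± 264 to 399 ± 118 (SD, n = 6 each; log2 difference -0.93, SE 0.23, limma adjusted p = 0.0311), IFI35 by 0.96 (SE 0.26, limma adjusted p = 0.0407) and TDRD7 by 0.52 (SE 0.14, limma adjusted p = 0.0391). SAMD9, an antiviral protein, rose from 438 ± 110 to 849 ± 263 (log2 difference 0.93, SE 0.22, limma adjusted p = 0.0231). The median difference of the list was -0.11, beside 0.01 over all tested genes, and 36 of 60 genes had values below 0. These 4 calls became 1 without SCR replicate 3, siPOLR1D3 replicate 1, replicate 2 or replicate 3, 2 without SCR replicate 2 or siPOLR1D2 replicate 1, and 0 without SCR replicate 6 or siPOLR1D2 replicate 3.

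In HT29 no interferon-stimulated gene was called by limma. Of 69 tested genes, 66 had values below 0, beside 6635 of all 13274, and the median was -0.66 beside 0.00 over all. The smallest p values belonged to STAT2 (-0.72, SE 0.16), TRIM25 (-0.70, SE 0.17) and PARP10 (-1.21, SE 0.33), each at a limma adjusted p of 0.355, and 5 of the 69 had an unadjusted p under 0.05. The mean log2 level over the 60 listed genes that were tested in both lines showed how unequal the HT29 SCR libraries were. It was 8.28, 7.65, 9.61 and 10.31 in SCR replicates 1 to 4, 7.34 and 8.52 with siPOLR1D2, and 8.61 and 8.63 with siPOLR1D3. Only SCR replicates 3 and 4 lay above the silenced libraries. SLFN5 and APOL6 were ordered in part otherwise, with SCR replicate 1 the highest of the 4 for both genes and SCR replicate 3 the lowest for SLFN5. For APOL6, as for the list, SCR replicate 2 was the lowest SCR library, and replicate 4 was above replicate 3. The lowest HT29 library for the list and for both genes was siPOLR1D2 replicate 1. The list median moved to -0.22 without SCR replicate 4, to -0.44 without SCR replicate 3, to -0.36 without siPOLR1D2 replicate 1 and to -1.10 without SCR replicate 2, and was -0.92 without SCR replicate 1. Replicate number as a block leaves SCR replicates 1 and 2 as the only SCR libraries that share a number with silenced ones. With that block the median turned to 0.36 and 19 of the 69 genes had values below 0. In every other HT29 setting the median lay below 0, from -1.10 to -0.22, with no gene of the list called. In SW480 the mean log2 level of the list ran from 7.28 to 7.83 in SCR and from 7.16 to 7.67 in the silenced libraries, and the groups overlapped. There SCR replicates 3 and 4 were the highest for the list (7.76 and 7.83) and also for SLFN5 and APOL6. SCR replicate 2 was the lowest SCR library for the list, but replicate 1 for both genes. The siPOLR1D2 libraries (7.16 to 7.44) lay below the siPOLR1D3 libraries (7.55 to 7.67), as for SLFN5 but not for APOL6. Of all tested genes, 34.5% were so separated, and a link was not tested.

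**Figure D5:**
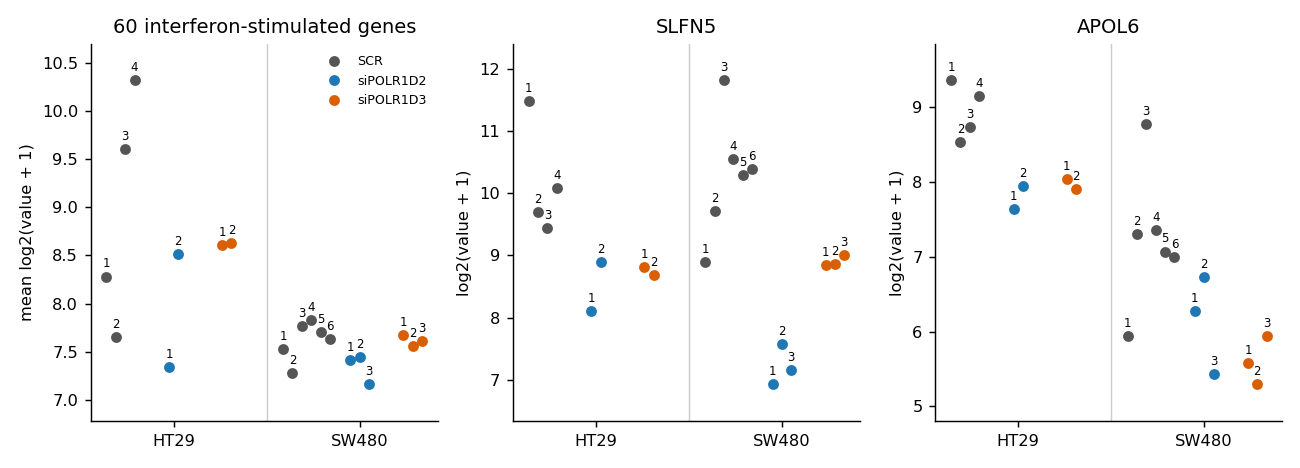
Mean log2 level of 60 interferon-stimulated genes, and the log2 levels of SLFN5 and APOL6, with 1 point per library numbered by replicate and coloured by siRNA. In HT29 SCR replicates 3 and 4 lead the interferon-stimulated genes (9.61 and 10.31), whereas SCR replicate 1 leads SLFN5 and APOL6. The lowest HT29 library is siPOLR1D2 replicate 1 in every panel. In SW480 SCR replicates 3 and 4 lead the libraries of that line in every panel.

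Upstream of these genes, 21 receptors and signalling proteins were examined. In SW480, 4 of 19 tested genes fell and none rose, beside 4.29% and 2.44% of all genes. JAK1, the kinase shared by the interferon receptors, fell by 0.50 (SE 0.11, limma adjusted p = 0.0208), the type II receptor chain IFNGR2 by 0.60 (SE 0.14, limma adjusted p = 0.0216) and the type I receptor chain IFNAR1 by 0.60 (SE 0.16, limma adjusted p = 0.0412), next to IRF1. The 4 calls became 2 without SCR replicate 2, 3 or 6, siPOLR1D2 replicate 3 or siPOLR1D3 replicate 1. In HT29 none of 19 tested genes was called by limma (3 had an unadjusted p under 0.05), with STAT2 at -0.72, IFNAR1 at -0.38 (SE 0.14) and IFNGR2 at -0.33 (SE 0.13). Of 9 interferon ligands, none passed the filter in SW480, and IFNA1 (-0.75, SE 0.37) and IFNE (-0.32, SE 0.26) passed it in HT29 with limma adjusted p of 0.493 and 0.640. Of the 18 sensors of foreign nucleic acid and their adaptors, 0 of 13 tested in SW480 and 0 of 15 in HT29 were called (1 and 0 had an unadjusted p under 0.05). The smallest p values in SW480 belonged to TMEM173, which encodes the adaptor STING (0.58, SE 0.25, limma adjusted p = 0.175), the endosomal RNA receptor TLR3 (-0.86, SE 0.47, limma adjusted p = 0.292) and the kinase TBK1 (-0.24, SE 0.14, limma adjusted p = 0.327). In HT29 they belonged to TLR3 (-1.17, limma adjusted p = 0.482), the nucleic acid sensor ZBP1 (-0.97, limma adjusted p = 0.483) and the DNA sensor CGAS (0.51, limma adjusted p = 0.533).

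Genes next to the clusters were examined as well. Of 24 protein-coding neighbours within 300 kb, 17 were tested in SW480, where 2 fell and 2 rose (beside 4.29% and 2.44% of all genes), and 16 in HT29, where none was called by limma (1 had an unadjusted p under 0.05). AP2B1, a clathrin adaptor subunit, fell by 0.48 (SE 0.09, limma adjusted p = 0.0104) and the ubiquitin ligase gene RFFL by 0.50 (SE 0.14, limma adjusted p = 0.0418), both near the Schlafen cluster. FOXRED2 rose by 0.68 (SE 0.17, limma adjusted p = 0.0297) and the replication helicase subunit MCM5 by 0.52 (SE 0.14, limma adjusted p = 0.0436), on either side of the APOL genes. Leaving out single libraries left between 1 and 4 of these calls. They became 1 without siPOLR1D2 replicate 3, any siPOLR1D3 replicate or SCR replicate 4, and 2 without SCR replicate 3, 5 or 6. The genes at the cluster ends were MB and APOL5 beside APOL6, RBFOX2 and MYH9 beside the cluster of APOL1 to APOL4, and SLC35G3 and SLFN12L beside the Schlafen cluster. RBFOX2 and MYH9 were tested in both lines and SLFN12L in SW480, with no call, and MB, APOL5 and SLC35G3 did not pass the filter.

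Last, the variation among replicates was compared between genes, as the deviation of each library's log2 value from the mean of its own line and siRNA group, over 20 libraries and 12724 genes tested in both lines. This is a description, since all genes share the same libraries. The genes most like APOL6 were NT5E (Pearson r = 0.93), CERS5 (r = 0.88) and ZNF701 (r = 0.88), and those most like SLFN5 were EIF1B (r = 0.92), WDR5B (r = 0.91) and RIOK3 (r = 0.91). The median r with all genes was 0.03 for APOL6 and 0.02 for SLFN5. APOL6 and SLFN5 had r = 0.81 with each other, and APOL2 had r = 0.77 with APOL6 and r = 0.74 with SLFN5. APOL1 had r = 0.13 and 0.27 and APOL4 r = 0.02 and -0.06. These values moved when 3 SCR libraries were left out, with deviations still taken from group means that included them. HT29 SCR replicate 1 and SW480 SCR replicate 3 were the highest SCR libraries of their line for APOL6 and SLFN5. SW480 SCR replicate 1 was the lowest of its line for both genes, and was not far out on the first component. Without HT29 SCR replicate 1 and SW480 SCR replicates 1 and 3, r over the 17 libraries left was 0.41 between APOL6 and SLFN5, 0.68 between APOL6 and APOL2, 0.77 between APOL6 and NT5E, and 0.75 between SLFN5 and EIF1B. For APOL1 it was then 0.36 with APOL6 and 0.59 with SLFN5, and for APOL2 it was 0.43 with SLFN5. The means kept in the deviations leave the remaining SCR libraries of each line with a shared offset. These r values are therefore not correlations among the 17 libraries alone, and no order of genes is read from them.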

How the data were processed

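RNA of HT29 and SW480 cells was captured with a coding-exome kit and sequenced as paired reads. Per the labels and the study's methods, the authors quantified reads with kallisto (0.44.0, build hg38) and deposited 1 signal value per gene and library, a DESeq2-normalized (1.24.0) read count. The index and annotation are not given in the sources used here. Values were not whole reads: 21.0 to 49.1% of low values per library were whole multiples (tolerance 0.01) of 1 estimated read, so no count model was run. Depth was estimated at 13533103 to 27588443 reads per library.

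Rows sharing a name were summed (40117 rows, 36346 names). limma (3.58.1, R 4.3.3), with a mean-variance trend, was fitted within each line to log2(value + 1) for genes at 10 or more in a number of libraries no lower than the size of the smaller group (SCR or silenced), with Benjamini-Hochberg adjustment and a threshold of 0.05. Silenced libraries were pooled against SCR, and a fit with 3 groups compared the siRNAs. The fits were also run on simulated data with independent noise for each gene and library. Those data held no sides and no outlying libraries, so they do not show how the fits behave with the libraries here. The members, the gene lists and the tests were chosen with earlier results of these data known. From each list, the text names up to 3 genes with the smallest adjusted p per direction in each line. The siRNA contrast on the second side, the test of that contrast between lines, the correlations without 3 libraries and the levels per kb without single libraries were chosen after seeing the data. Alternatives covered the pseudocount, filter, scaling, trend, summing, replicate block, each siRNA, each side and each library left out.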

Additional observations from a re-analysis of the deposited data

Results flagged for a closer look

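Among 38 groups of 4 or 6 libraries examined for the 9 genes and POLR1D, 6 held a library far from the others by Dixon's criterion, which chance flags in about 1 in 20 groups. The criterion was taken on the unlogged values and not on the log2 scale of the fits, so these flags do not carry over to that scale. In SW480 SCR replicate 3 was far above the other 5 SCR libraries for SLFN5 (3591), APOL6 (439) and APOL2 (392), and SCR replicate 1 for SLFN13 (17.4). In HT29 SCR replicate 1 was far below the other 3 SCR libraries for APOL4 (6.65) and was the only one above 0 for SLFN11 (1.49).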

How the results depend on the processing

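In SW480 the 1011 genes called after silencing became 666 with no filter, 574 with siPOLR1D2 alone, 0 on the first side (1520 at an unadjusted p under 0.05 in limma) and 1939 on the second, and ran from 534 to 1283 with single libraries left out. The 4 interferon-stimulated genes called became 2 with no filter, 0 on the first side and 11 on the second (0 to 6 with single libraries left out). For the contrast between the siRNAs, given next, the second side held only 1 siPOLR1D2 library. The calls on that side, SLFN5 included, rest on this 1 library without a replicate, so nothing is read from them. The 498 genes called between the siRNAs became 289 with no filter, 293 with no trend and 1657 on the second side (39 to 777 with single libraries left out), and the members called between them went from 0 to 1, SLFN5, on the second side (0 to 1 with single libraries left out). In HT29 leaving out single libraries gave 0 to 1 genes called after silencing, 0 between the siRNAs and 0 interferon-stimulated genes.

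Same-numbered libraries did not deviate together (mean r = -0.03 over 4 pairs in HT29 and 0.01 over 6 in SW480), so the numbers were not taken as pairs. With replicate number as a block, SW480 calls became 0 after silencing (3003 at an unadjusted p under 0.05 in limma), with 0 interferon-stimulated genes, and 39 between the siRNAs. In SW480 only SCR replicates 1 to 3, all on the first side, share a number with silenced libraries, most of which lay on the second side. Silencing and side are therefore mixed in that fit. HT29 gave 735 calls after silencing with 4 interferon-stimulated genes, of which 1 was lower, while the median of the list turned from -0.66 to 0.36.

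Between the siRNAs in SW480, 3 differences that were not called changed sign: on the second side APOL3 to 1.22 and APOL6 to 0.17, and with quantile normalization SLFN11 to -0.20. Left-out libraries moved siRNA differences from -0.018 to 0.36 for APOL2 and from -0.30 to 0.62 for SLFN11 in SW480, from -0.0020 to 0.13 for APOL2 and from -0.14 to 0.65 for SLFN5 in HT29, and from -0.082 to 0.30 for the APOL2 contrast between lines. The residual SD of the silencing fit, in which the siRNAs were pooled, also holds any difference between them. For SLFN5 in SW480 it was 0.96, beside 0.74 in the fit with 3 groups. With either siRNA alone the SLFN5 difference in SW480 moved by more than the smaller SD. The silencing differences of the tested members moved by less than 1 residual SD of the silencing fit under each alternative. None of those of SLFN5, APOL6 and SLFN11 changed sign, but others did in SW480, such as APOL4 to 0.47 and SLFN12 to 0.38 with the replicate block, SLFN12 to 0.20 and APOL4 to 0.16 with siPOLR1D3 alone, APOL3 to 0.18, APOL4 to 0.28 and APOL1 to -0.29 on the first side, APOL1 to -0.35 with siPOLR1D2 alone, and APOL1 to -0.14 and APOL2 to 0.13 with a library left out, and in HT29 APOL4 turned to -0.05 with siPOLR1D3 alone. The cause of these changes was not tested. Members with values near 10 rest on few reads, so changes in APOL3, APOL4, SLFN12 and SLFN13 were hard to detect at this depth.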
